A study of Homo sapiens with 6 samples.

Results

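The AP-1 transcription factor genes analysed here were the 10 genes FOS, FOSB, FOSL1, FOSL2, JUN, JUNB, JUND, ATF3, BATF and BATF3, out of 20007 protein-coding genes in GENCODE release 44. They were chosen by name, and each was examined over its gene body plus 20 kb on either side. The assay was ATAC-seq, in which Tn5 transposase cuts and tags accessible DNA, in wild-type MCF10A cells, an established non-tumorigenic human mammary epithelial line. All cells had been grown in medium with 5% horse serum and 20 ng/mL EGF. About 50000 cells per sample then stood for 30 min in a phosphate-free HEPES-buffered Hanks solution, without treatment, before the treatment period of 30 min. The control group received no further addition, the TPA group received 50 μM tris(2-pyridylmethyl)amine, a cell-permeable Zn2+ chelator, and the ZnCl2 group received 30 μM ZnCl2. There were 2 libraries per group and 6 in all, from 1 cell line at 1 time point. The methods call the replicates biological and the results call them technical, so the p-values measure only the spread between these libraries, which may be technical. In the fits (limma) that spread was estimated largely over all genes or regions of like rank, not from a gene's own libraries.

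AP-1 is a dimer of basic leucine zipper proteins. Jun proteins pair with each other or with Fos proteins, and ATF and BATF proteins join the same network. The dimers bind the sequence TGACTCA, called the AP-1 site, and some pairs with ATF proteins prefer the cyclic AMP response element (CRE) TGACGTCA. FOS, FOSB, JUN, JUNB and ATF3 are immediate early genes, which growth factors and stress induce through MAP kinases without new protein synthesis, while FOSL1 and FOSL2 products accumulate later in stimulated epithelial cells. The comparisons addressed whether depletion or excess of labile Zn2+ altered the chromatin at these genes.

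The deposited data were lists of open regions called in each library separately by HMMRATAC, each region with a whole-number score of at least 30. The percentile of a region was the percentage of regions in the same list with a lower score, so it is a rank within a library and not a fold change of accessibility. The control libraries held 25031 and 44641 regions, the TPA libraries 35902 and 41376, and the ZnCl2 libraries 38069 and 18887. List length therefore differed more within the control and ZnCl2 groups than between group means, and without read counts in the lists the depth is unknown. ZnCl2 replicate 2 stood apart by its short list and TPA replicate 2 by 998 regions wider than 10 kb, against 29 to 157 in the other libraries. Of 8 mammary epithelial markers, KRT18 alone had an open transcription start site (TSS) in every library, 6 had it in some libraries (the basal keratins KRT5 in 5 and KRT14 in 4), and TP63 in none. Of 8 markers of other lineages, 7 had no open TSS in any library, and GFAP had one in ZnCl2 replicate 1, at percentile 0.

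The TSS of 8 of the 10 AP-1 genes lay in an open region in all 6 libraries. Over all 20007 coding genes this held for 8610, or 43.0%. The exceptions were BATF, whose TSS was open in no library, like that of 36.8% of coding genes, and BATF3, whose TSS was open in control replicate 2 (percentile 39.5) and ZnCl2 replicate 1 (percentile 48.4) alone. Those are the libraries with the longest list of their group. TPA replicate 2, however, had no region at that TSS with 41376 regions, against 38069 in ZnCl2 replicate 1. The number of AP-1 genes with an open TSS was thus 8 and 9 in the control, 8 and 8 with TPA, and 9 and 8 with ZnCl2. On average the difference was -0.500 genes between TPA and either other group and 0 between ZnCl2 and control. All 3 comparisons had p = 1 in an exact two-sided permutation test, in which 2 libraries against 2 cannot give a p below 0.33. With an equal number of 18887 regions per list, 8 genes were open in every library.

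**Figure D1:**
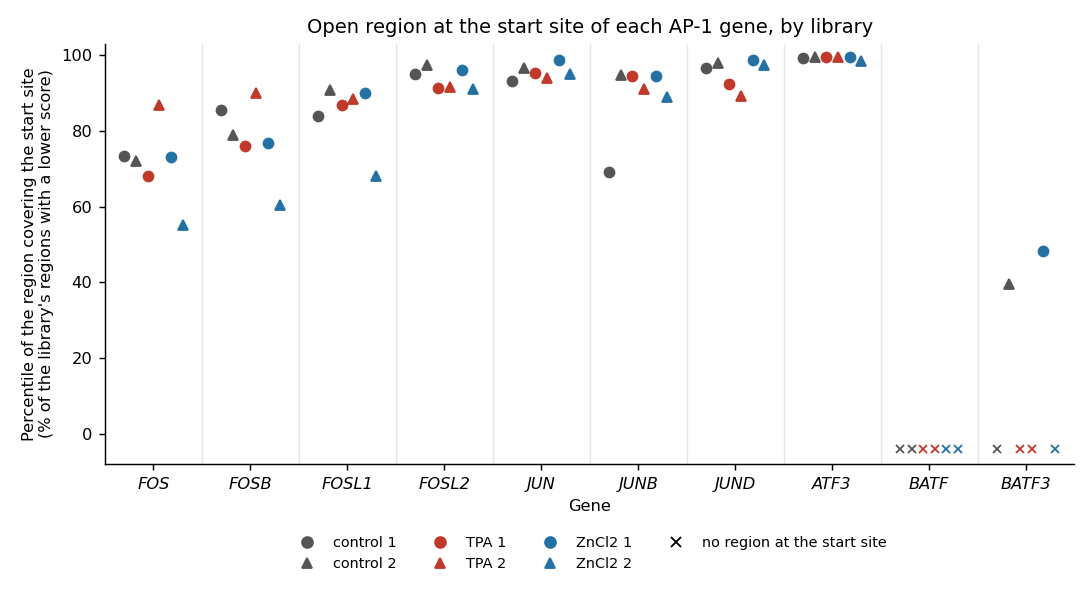
Percentile, within each library's own list, of the open region covering the TSS of each AP-1 gene (vertical axis, percent of regions with a lower score). Each point is 1 library (grey control, red TPA, blue ZnCl2, circles replicate 1 and triangles replicate 2) and a cross below 0 marks a library with no region there. ATF3 sat above 98 in all 6 libraries, FOS spread from 55.2 to 86.9, and BATF had crosses only.

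The 8 genes did not rank alike. Averaged over the 6 libraries, the TSS percentile was 99.3 for ATF3, 95.5 for JUN, 95.4 for JUND, 93.8 for FOSL2, 88.9 for JUNB, 84.7 for FOSL1, 78.0 for FOSB and 71.4 for FOS. Among the 8610 coding TSSs open in every library, the mean of ATF3 was above 99.3% of genes, that of JUN above 91.3%, that of JUND above 91.1% and that of FOS above 40.6%. The values of each gene over the 6 libraries overlapped those of its neighbour in this order, and ATF3 was highest of the 8 in 6 of 6 libraries. The TSS regions of AP-1 genes were also wide, with a median of 3455 to 5130 bp in the 6 libraries, where all open coding TSSs had medians from 1690 to 2760 bp.

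Of the Fos family, FOS encodes c-Fos, the prototype immediate early partner of Jun proteins. The gene lies at chr14:75278826-75282230 on the plus strand of hg38. Its TSS region was at percentile 73.3 and 72.0 in the control, 68.1 and 86.9 with TPA, and 73.0 and 55.2 with ZnCl2. All groups overlapped, the TPA pair spanned the control pair, and the lowest value was in the library with the shortest list. TPA differed from control by 4.85 ± 16.3 (SE) percentile points and ZnCl2 by -8.55 ± 16.3 (limma, adjusted p = 1.00 for both). This SE comes largely from genes of like mean percentile. The SD of the FOS libraries themselves was 0.942 in the control, 13.3 with TPA and 12.6 with ZnCl2. The region was 3290 and 3750 bp wide in the TPA libraries, and 3900 to 5230 bp in the 4 others. It holds the CArG box, the site of serum response factor in the serum response element that drives FOS induction. The box spans positions -314 to -305 from the TSS base counted as 0, within chr14:75278504-75278533, and is shown with 10 bases on either side, the box in capitals.
FOS CArG box: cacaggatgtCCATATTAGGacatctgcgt
It was the only CArG box in that region. Within the 300 bases from 250 upstream to 50 downstream, 1.26% of 21613 RefSeq promoters of coding genes (GRCh38.p14) held such a box, and the FOS box lies outside that span.

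FOSB encodes a Fos protein with a long and a truncated form, and lies at chr19:45467995-45475179, plus strand. Its TSS percentile was 85.6 and 79.0 in the control, 76.0 and 90.0 with TPA, and 76.8 and 60.5 with ZnCl2. Both ZnCl2 values lay below both control values, while TPA overlapped both groups. The difference between ZnCl2 and control, -13.7 ± 13.2 points, did not pass the test (limma, adjusted p = 1.00), and was -5.50 points without ZnCl2 replicate 2 and -21.8 without ZnCl2 replicate 1. In TPA replicate 2 the call was a single region of 36210 bp that ran from -12.6 to 23.6 kb relative to the TSS, where the other 5 libraries had regions of 3310 to 4510 bp. That value therefore carries the score of a fused region, and without that library the difference between TPA and control was -6.30 in place of 0.689 points.

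FOSL1 encodes Fra-1, the Fos protein most associated with motility and invasion in epithelial cells. It lies at chr11:65892049-65900573, minus strand. Its TSS percentile was 84.1 and 90.8 in the control, 86.9 and 88.4 with TPA, and 90.1 and 68.0 with ZnCl2. Both TPA values lay between the control values, and ZnCl2 replicate 2 alone was low. None of the 3 differences passed the test, the largest being 8.61 ± 8.24 points for TPA against ZnCl2 (limma, adjusted p = 0.772). FOSL2, which encodes Fra-2 and lies at chr2:28392448-28417317 on the plus strand, ranked higher, at 95.0 and 97.3 in the control, 91.4 and 91.7 with TPA and 96.1 and 91.1 with ZnCl2. Both TPA values were below both control values and between the ZnCl2 values. The difference between TPA and control was -4.61 ± 2.55 points (limma, adjusted p = 0.972). Both FOSL1 and FOSL2 carry an AP-1 site at the TSS itself, and the sites are shown in the gene's own direction because these are AP-1 genes with the AP-1 sequence at their start. In FOSL1 (chr11:65900373-65900399) the site reads TGAGTCA, the same motif on the other strand, and spans positions -1 to 5. In FOSL2 (chr2:28392852-28392878) it spans positions 4 to 10. Capitals mark the site.
FOSL1 AP-1 site: acggcgcgggTGAGTCAgaacccagca
FOSL2 AP-1 site: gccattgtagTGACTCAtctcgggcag
An AP-1 site occurred in 4.03% of the RefSeq coding promoters, searched on both strands. No RefSeq promoter of FOSL1 or BATF3 was used here.

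Of the Jun family, JUN encodes c-Jun, the main transactivating partner of Fos proteins, and lies at chr1:58776845-58784048, minus strand. Its TSS percentile was 93.3 and 96.7 in the control, 95.3 and 93.9 with TPA, and 98.7 and 95.0 with ZnCl2. All groups overlapped, and no difference passed the test (limma, adjusted p from 0.735 to 1.00). JUNB, at chr19:12791486-12793315 on the plus strand, encodes a Jun protein with weaker transactivation that restrains c-Jun in many settings. Its TSS percentile was 69.2 and 94.9 in the control, 94.6 and 91.1 with TPA, and 94.6 and 89.0 with ZnCl2. A low value in control replicate 1 decided the difference, and the control SD of 18.2 points was well above the SE of the fit. With both libraries the TPA value was 10.8 ± 5.13 points above control (limma, unadjusted p = 0.0360, adjusted p = 0.750), and without control replicate 1 it was 2.12 points below. In control replicate 1 the TSS lay in a call of 1980 bp, and a separate call at percentile 95.6 lay in the same merged region, so that the merged JUNB region was at 95.6 and 94.9 in the control.

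JUND encodes the Jun protein that is expressed in most resting cells and is little induced by growth factors, and lies at chr19:18279694-18281622, minus strand. Its TSS percentile was 96.6 and 97.9 in the control, 92.5 and 89.2 with TPA, and 98.7 and 97.5 with ZnCl2. Both TPA values lay below all 4 other values. JUND was the 1 AP-1 gene called at its TSS: it was 7.23 ± 1.98 (SE) points lower with TPA than with ZnCl2 (90.9 ± 2.29 against 98.1 ± 0.896, SD, n = 2 each; limma, unadjusted p = 2.53e-04, adjusted p = 0.0337). Against control the difference was -6.39 ± 1.98 points and did not pass (adjusted p = 0.127), although it passed without ZnCl2 replicate 1 (adjusted p = 0.0443). In the lists cut to 18887 regions, the percentiles were 95.5 and 95.1 in the control, 85.7 and 76.4 with TPA, and 97.4 and 97.5 with ZnCl2, and the deficit with TPA passed against both groups (-14.2 ± 2.82 points against control, adjusted p = 0.0194, and -16.4 ± 2.82 points against ZnCl2, adjusted p = 0.00938). TPA was the lower group for JUND under all 14 alternatives of both comparisons, but the call against ZnCl2 passed in 6 of the 14. It was lost with normal scores (adjusted p = 0.0977), with no filter on closed TSSs (adjusted p = 0.639) and with a replicate block (adjusted p = 0.210). It was also lost without either TPA library, ZnCl2 replicate 2 or either control library (adjusted p from 0.0541 to 0.394) and held without ZnCl2 replicate 1 (adjusted p = 0.0377). The calls at JUND were 4130 and 3550 bp wide with TPA, 3410 and 5850 bp in the control, and 5900 and 8930 bp with ZnCl2. The call of ZnCl2 replicate 2 ran from -1.19 to 7.74 kb and took in a downstream region that the other libraries called separately. Its percentile of 97.5 is therefore that of a joined region. The merged region also covered the TSS of IQCN.

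The 250 bases upstream of the JUND TSS (chr19:18281623-18281872, minus strand, RefSeq on GRCh38.p14) are shown because JUND is the called gene. Capitals mark a CRE that starts 200 bp upstream and, 22 bp upstream, GGGCGCA, which is the core of a metal response element (TGCGCNC or TGCACNC) on the opposite strand.
JUND promoter: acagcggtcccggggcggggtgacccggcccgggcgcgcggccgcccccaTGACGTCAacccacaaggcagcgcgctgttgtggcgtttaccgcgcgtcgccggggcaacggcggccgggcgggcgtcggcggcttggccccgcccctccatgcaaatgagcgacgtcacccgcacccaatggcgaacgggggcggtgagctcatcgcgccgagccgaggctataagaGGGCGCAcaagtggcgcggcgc
The CRE occurred in 2.29% of RefSeq coding promoters and the metal response element core in 33.9%. Promoters were found for 8 of the 10 AP-1 genes, but those of ATF3 start at other transcripts than the TSS used here. The CRE was matched in JUND alone among the 8, the AP-1 site in FOSL2 alone, and the metal response element core in FOSL2, BATF, JUNB and JUND. At the ATF3 TSS used here, a metal response element core lay just downstream, at chr1:212608779-212608785.

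ATF3, the stress-induced member of the ATF family, which forms dimers with Jun proteins and represses many of its targets, lies at chr1:212565334-212620777, plus strand. Its TSS, taken from the canonical transcript, lies at base 212608761, well inside the gene record, whose start belongs to another transcript. The TSS percentile was 99.4 and 99.4 in the control, 99.5 and 99.6 with TPA, and 99.4 and 98.5 with ZnCl2. Values this close to the top leave little room for a difference, and the largest was 0.572 ± 1.04 points for TPA against ZnCl2 (limma, adjusted p = 0.914). An intronic region, 12.6 kb upstream of the TSS at chr1:212595101-212597270, ranged more widely. It was at percentile 89.3 and 90.1 in the control, 97.0 and 97.9 with TPA, and 73.7 and 68.0 with ZnCl2. No groups overlapped, with TPA highest and ZnCl2 lowest. The share of all merged regions separated in this way was not computed. Among coding TSSs, TPA lay above ZnCl2 without overlap at 21.5% and above control at 10.3%, and ZnCl2 lay below control at 13.3%. These shares are of another kind of region and may not hold for merged regions. The median difference between TPA and ZnCl2 was 1.73 points over coding TSSs and 7.39 over merged regions.

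In a fit over all 15852 merged regions open in all 6 libraries, added after the TSS results were seen, the ATF3 intronic region was 26.6 ± 6.36 points higher with TPA than with ZnCl2 (97.5 ± 0.603 against 70.9 ± 4.05, SD, n = 2 each; limma, adjusted p = 0.00424). The median difference of all regions in that comparison was 7.39 points. Neither treatment passed the test against control (7.75 ± 6.36 points for TPA, adjusted p = 1.00, and -18.8 ± 6.36 points for ZnCl2, adjusted p = 0.253). The difference from ZnCl2 passed in 8 of 11 alternatives and kept its direction in 11. It did not pass without TPA replicate 1 (adjusted p = 0.792) or TPA replicate 2 (adjusted p = 0.666). With 18887 regions per list the region was at 85.9 and 76.5 in the control, 94.3 and 95.4 with TPA, and 47.1 and 68.0 with ZnCl2. A further region 42.1 kb upstream, beside the start of the gene record and chosen after its values were seen, was at 62.6 and 86.8 in the control, 90.4 and 93.1 with TPA, and 77.4 and 53.2 with ZnCl2. TPA was again the highest group without overlap, a separation not counted over all merged regions. The difference from ZnCl2, 26.5 ± 13.0 points, did not pass (limma, adjusted p = 0.285).

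**Figure D2:**
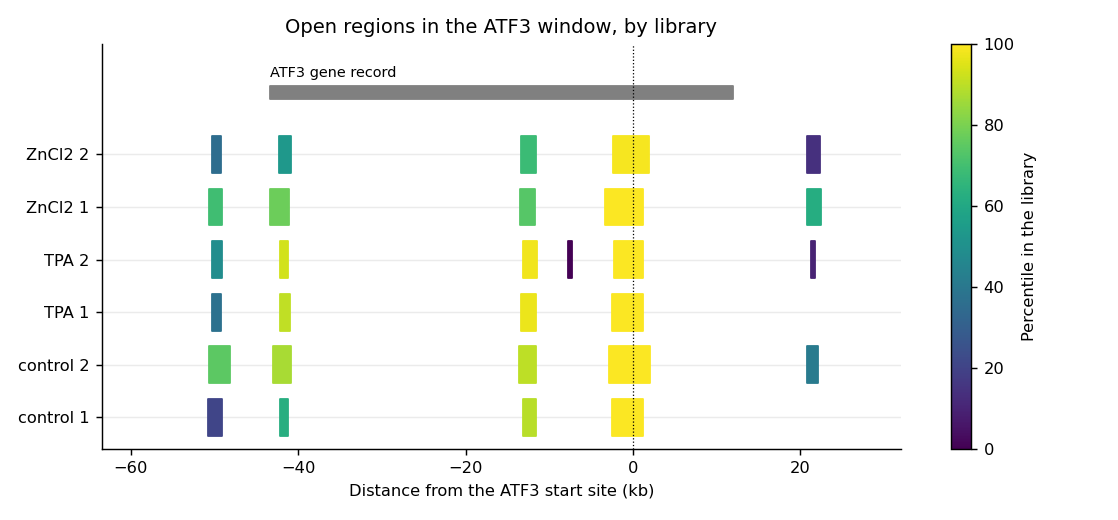
Open regions called in each library across the ATF3 gene body and 20 kb on either side, by distance in kb from the TSS (dotted line). Each block is 1 region, its length is its width and its colour its percentile in that library from 0 to 100, and the grey bar is the gene record. The region 12.6 kb upstream was present in all 6 libraries, at 97.0 and 97.9 with TPA and at 73.7 and 68.0 with ZnCl2.

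The ATF3 intronic region held 3 AP-1 sites. The 300 bases around the site nearest its centre (chr1:212596366-212596665, plus strand, hg38) are shown, with the site in capitals.
ATF3 intronic region: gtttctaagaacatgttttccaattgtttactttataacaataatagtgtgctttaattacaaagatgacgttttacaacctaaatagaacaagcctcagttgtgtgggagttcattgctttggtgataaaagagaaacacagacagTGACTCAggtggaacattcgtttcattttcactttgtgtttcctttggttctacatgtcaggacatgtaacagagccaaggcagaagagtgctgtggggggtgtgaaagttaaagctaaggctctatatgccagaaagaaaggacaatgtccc
Of 38600 merged regions without a coding TSS, 59.5% held at least 1 AP-1 site over their whole length. They had 4.26 sites per 10 kb and a median width of 1560 bp, where the ATF3 region was 2170 bp wide.

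BATF and BATF3 encode short proteins that pair with Jun and act mainly in lymphocytes and dendritic cells. BATF lies at chr14:75522455-75546993, plus strand, and had no open TSS. Its strongest region lay in an intron 13.6 kb downstream of the TSS, at percentile 56.8 and 62.1 in the control, 75.1 and 69.1 with TPA and 69.2 in ZnCl2 replicate 1, with no region in ZnCl2 replicate 2. BATF3, at chr1:212686417-212699840 on the minus strand, had its strongest region between genes 28.3 kb downstream of its TSS. That region was at 73.3 and 71.3 in the control, 67.0 and 78.2 with TPA and 78.6 and 35.2 with ZnCl2. In the ZnCl2 group the 2 libraries thus differed by more than the groups did.

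Over the AP-1 genes as a group, none was called at its TSS between TPA and control, where 0.488% of 8610 coding TSSs were called. At an unadjusted p under 0.05, JUNB was higher and JUND lower. None was called between ZnCl2 and control, where 0.0232% were called and no AP-1 gene had an unadjusted p under 0.05. Between TPA and ZnCl2, JUND was called, against 0.952% of all coding TSSs. The median difference between TPA and control was 0.173 points over the 8 genes and -0.416 over all 8610. Between ZnCl2 and control it was -1.51 and -2.84 points, and between TPA and ZnCl2 0.795 and 1.73 points.

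Without overlap between libraries, TPA was higher than control for ATF3 (10.3% of all coding TSSs) and lower for FOSL2 and JUND (23.8%). ZnCl2 was lower than control for FOSB (13.3%) and higher for no AP-1 gene (2.54%). TPA was higher than ZnCl2 for ATF3 (21.5%) and lower for JUND (17.8%). These shares of the 8 genes are near those of all genes.

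**Figure D3:**
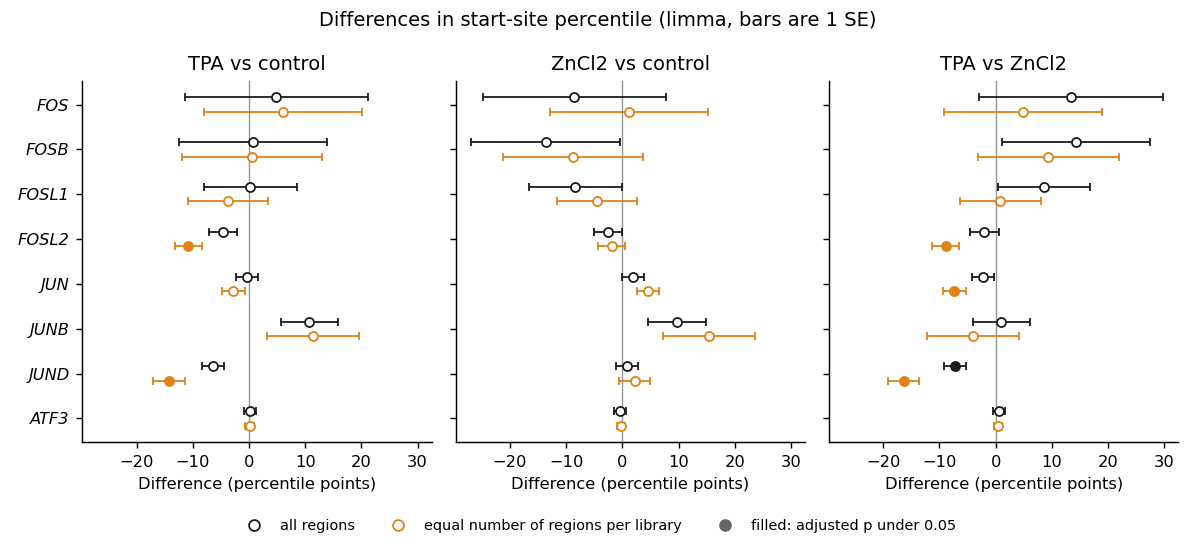
Difference in TSS percentile (horizontal axis, percentile points, first group minus second) for the 8 AP-1 genes with an open TSS in all 6 libraries, with bars of 1 SE from limma. Black points use all regions, orange points the 18887 highest-scoring regions per library, and filled points have an adjusted p under 0.05. JUND is filled in black for TPA against ZnCl2, where FOSL2, JUN and JUND are filled in orange, and for TPA against control FOSL2 and JUND are filled in orange.

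Equal list length changed these calls. With 18887 regions per list, JUND and FOSL2 were called lower with TPA than in the control, where 5.85% of 6740 coding TSSs were called. FOSL2 was at 93.3 and 93.7 in the control, 83.7 and 81.7 with TPA and 92.2 and 91.1 with ZnCl2, and its difference between TPA and control was -10.8 ± 2.36 points (limma, adjusted p = 0.0298). JUND, FOSL2 and JUN were called lower with TPA than with ZnCl2, where 11.5% of coding TSSs were called. The differences were -8.88 ± 2.36 points for FOSL2 (adjusted p = 0.0418) and -7.36 ± 2.03 points for JUN (adjusted p = 0.0466), which was at 91.0 and 86.6 with TPA and at 97.4 and 95.0 with ZnCl2. Between ZnCl2 and control 0% of coding TSSs were called, no AP-1 gene among them, and 1 AP-1 gene, JUN, had an unadjusted p under 0.05 (0.0495). In these shorter lists the median over all coding TSSs was itself shifted, to -3.06 points between TPA and control and -3.41 points between TPA and ZnCl2, and the part of that shift in the deficits of FOSL2, JUN and JUND was not tested.

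**Figure D4:**
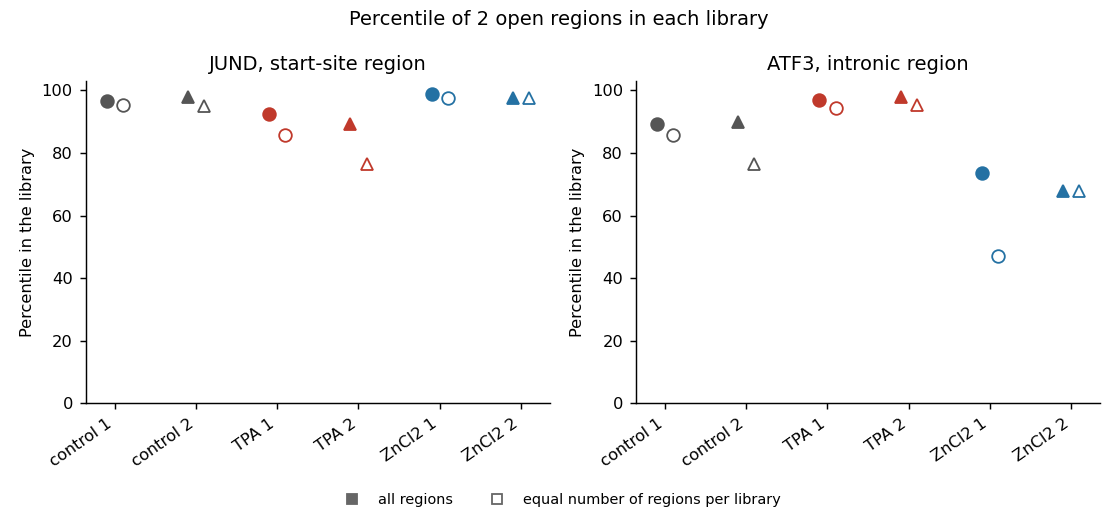
Percentile of the JUND TSS region (left) and of the ATF3 region 12.6 kb upstream of the TSS (right) in each of the 6 libraries. Filled points use all regions and open points the 18887 highest-scoring regions per library. At JUND both TPA libraries are the lowest in either version, and at ATF3 both TPA libraries are the highest.

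The 10 windows held 43 merged regions, of which 22 (51.2%) were open in all 6 and 3 were seen once. Of all 49527 merged regions 32.0% were open in all 6. Of the 43, 9 covered the TSS of their own AP-1 gene, and 28 covered no coding TSS. FOSL1 had the most, 7 merged regions with 5 open in every library, while JUN had 2 and BATF had 3 with none open in every library. The libraries called 38 and 45 regions in these windows in the control, 40 and 46 with TPA, and 45 and 28 with ZnCl2. In the fit over merged regions, 0 of the 22 fitted AP-1 regions were called between TPA and control (limma, 0.397% of all 15852, 1 region at an unadjusted p under 0.05), 0 between ZnCl2 and control (0.309% of all, 1 region at an unadjusted p under 0.05) and 2 between TPA and ZnCl2 (2.97% of all), namely the ATF3 intronic region and the JUND TSS region.

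Open regions covered 12.7% and 23.6% of the bases of the 10 windows in the control, 15.2% and 22.5% with TPA, and 21.2% and 16.5% with ZnCl2. Those of all coding genes were covered to between 2.55% and 6.21%, and the ratio of the AP-1 windows to all windows was 3.80 to 4.97 in the 6 libraries. These shares pool bases over windows, so long genes weigh more in the figure for all coding genes. The AP-1 windows were 41830 to 95444 bp long, windows were not matched for length, and the part of gene length in the ratio was not tested. The covered share was 18.1 ± 7.73% in the control, 18.9 ± 5.20% with TPA and 18.8 ± 3.35% with ZnCl2 (SD, n = 2 each). These means lay closer together than the replicates of any group (exact two-sided permutation test, p = 1 in all 3 comparisons). Within each group the library with the longer list had the larger share. In TPA replicate 2 the fused FOSB region alone raised that window to 81.3%, against 17.3% to 26.8% in the other libraries.

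**Figure D5:**
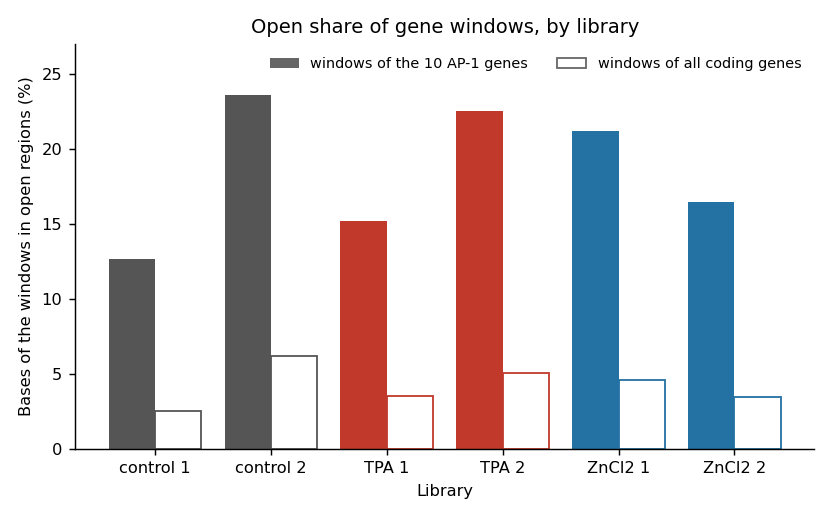
Percentage of bases in open regions (vertical axis) for the windows of the 10 AP-1 genes (filled bars) and of all coding genes (open bars) in each library. Filled bars run from 12.7% to 23.6% and open bars from 2.55% to 6.21%, and the spread within the control pair is as wide as the range over all 6.

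Regions open in both libraries of a group and in neither of another were rare. None of the 43 was specific in this way between TPA and control, where 2.74% of all merged regions were, and none between ZnCl2 and control, where 1.9% were. Between TPA and ZnCl2 there was 1, where 10.7% of all were. It lay at chr19:45448571-45449390 in an intron of ERCC1, 19.0 kb upstream of FOSB, at percentile 39.6 and 27.9 with TPA. It was also open in control replicate 2, at 30.6, and held an AP-1 site.

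Apart from the merged region that covers the TSS, the highest-ranking merged region of each window differed in kind. In the FOS window it lay between genes 19.9 kb upstream, at 90.4 and 92.8 in the control, 87.9 and 93.9 with TPA and 85.8 and 77.9 with ZnCl2, above the FOS TSS region in 6 of 6 libraries. In the FOSB window it lay in an intron of ERCC1 16.8 kb upstream, at 45.1 and 69.8 in the control, 80.8 and 69.1 with TPA and 48.4 and 4.90 with ZnCl2. A separate call near -12 kb ranked above it, at 73.3 and 84.1 in the control, 92.8 in TPA replicate 1 and 77.4 and 51.1 with ZnCl2, and it counts with the merged TSS region only because the fused call of TPA replicate 2 spans both. In the FOSL1 window it was the shared promoter of C11orf68 and DRAP1 17.5 kb upstream, at 88.4 to 95.9 in the 6 libraries. The FOSL2 region lay 16.9 kb downstream over an exon of FOSL2, and was at 66.1 and 85.8 in the control, 91.1 and 88.8 with TPA and 91.2 and 68.0 with ZnCl2. In the JUN window the only other region lay 20.3 kb downstream and was open in control replicate 2 and TPA replicate 2, at 26.6 and 15.5. The JUNB region was the HOOK2 promoter 16.9 kb upstream, at 13.9 to 72.0, and the JUND region lay 10.9 kb upstream, open in 5 libraries at 12.6 to 48.4. In JUND too a separate call ranked higher, about 5 to 7 kb downstream, at 62.6 and 71.3 in the control, 84.2 and 67.0 with TPA and 72.4 in ZnCl2 replicate 1, and the wide call of ZnCl2 replicate 2 joined it to the TSS region. None of the merged regions in this paragraph that lay apart from the TSS region and were open in every library was called when all regions were used. With 18887 regions per list the C11orf68 and DRAP1 promoter was called lower with TPA than with ZnCl2, by -15.0 ± 3.09 points (limma, adjusted p = 0.0173), at 78.0 and 78.1 against 91.8 and 94.2. In those lists 1677 of all 11181 merged regions fitted were called in that comparison, 836 of them lower with TPA.

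Upstream of FOSL1 lay a pair of further intergenic regions. The region 5.83 kb upstream was at 13.1 and 42.8 in the control, 67.0 and 71.1 with TPA and 49.9 and 9.41 with ZnCl2. TPA did not overlap the other groups, whose own libraries lay far apart. How often this occurs over all merged regions was not computed. In TPA replicate 2 the value came from a call of 7580 bp, against 820 to 1830 bp in the other 5 libraries. The difference from control of 41.1 ± 23.6 points did not pass (limma, adjusted p = 1.00). The region 11.997 kb upstream was at 13.1 and 60.1 in the control, 59.4 and 69.1 with TPA and 46.8 in ZnCl2 replicate 1 alone, so that TPA overlapped the control. These regions were singled out after their values were seen.

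The AP-1 site itself was not frequent at the centres of these regions. It was found in the central 300 bp of 1 of the 28 AP-1 window regions without a coding TSS (3.57%), the region near FOSB in ERCC1, and in 25.8% of the 38600 such regions genome-wide. Over whole regions, 15 of the 28 (53.6%) held a site, against 59.5% genome-wide, at 3.60 sites per 10 kb against 4.26. The AP-1 window regions were wider (median 2280 bp against 1560 bp) and richer in GC (median 53.3% against 45.1%), and the part of width and GC content in the central count was not tested.

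The pathway around AP-1 was read from 4 lists. Of 10 related basic leucine zipper genes, 8 had a TSS open in all 6 libraries, JDP2 in 3 and BATF2 in none. None was called in the 3 comparisons (limma), and ATF2 alone had an unadjusted p under 0.05, between ZnCl2 and control. The smallest p was that of ATF2, a Jun partner that binds the CRE, at 92.2 and 96.9 in the control, 96.2 and 96.6 with TPA and 98.1 and 98.4 with ZnCl2 (3.71 ± 1.69 points for ZnCl2 against control, adjusted p = 1.00, and 1.86 ± 1.69 for TPA). Between TPA and ZnCl2 it was that of MAFF, a small Maf protein, at 78.4 and 85.4 with TPA and 59.7 and 41.2 with ZnCl2 (31.5 ± 16.8 points, adjusted p = 0.520). Of 10 MAP kinase, SRF and ETS genes, 6 were open in all 6 libraries and ETS1 in none, and none was called. MAPK8, which encodes the kinase JNK1 that phosphorylates c-Jun, was at 95.6 and 93.6 in the control, 87.4 and 84.3 with TPA and 94.9 and 94.4 with ZnCl2 (-8.77 ± 3.49 points for TPA against control, limma, unadjusted p = 0.0120, adjusted p = 0.445). ELK1, an ETS factor that binds the serum response element with SRF, had the smallest p between ZnCl2 and control, at 5.07 ± 9.67 points (adjusted p = 1.00).

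Of 8 feedback inhibitors of MAP kinases, 6 were open in all 6 libraries. DUSP1, an immediate early phosphatase that inactivates MAP kinases, was called higher with TPA than with ZnCl2, by 18.4 ± 4.81 points (limma, adjusted p = 0.0207), at 90.8 and 93.6 in the control, 96.5 and 97.9 with TPA and 93.9 and 63.6 with ZnCl2. Its difference rested on ZnCl2 replicate 2, the library with the shortest list: without it, it was 3.25 points (adjusted p = 0.860). The call was also lost without either TPA library or control replicate 1 (adjusted p = 0.876, 0.755 and 0.0818), and with equal lists, normal scores, the upper 50% of each list, percentiles among common regions, the replicate block and no filter (adjusted p from 0.0608 to 0.747). Of 10 textbook AP-1 targets, 4 were open in all 6 libraries and LIF in none. PLAUR, the urokinase receptor, was called lower with TPA, at -8.51 ± 1.83 points against control (limma, adjusted p = 0.00311) and -9.27 ± 1.83 points against ZnCl2 (adjusted p = 4.84e-04). It was at 98.1 and 98.8 in the control, 87.9 and 92.0 with TPA and 99.3 and 99.2 with ZnCl2. Both TPA values lay below the other 4. Of all coding TSSs, 23.8% had TPA below control and 17.8% had TPA below ZnCl2 without overlap. Without TPA replicate 1 neither call passed (adjusted p = 0.157 and 0.0518), and the call against control was also lost without control replicate 1 or 2 (adjusted p = 0.674 and 0.178) and with the replicate block (adjusted p = 0.0515). With no filter both were lost (adjusted p = 0.567 and 0.467).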

How the data were processed

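Chromatin accessibility was assayed in 6 MCF10A libraries, 2 per group. Per the labels' processing notes the authors used HISAT2 2.1.0 and SAMtools 1.8 with hg38, and per the methods trimmed adapters with BBDuk and ran HMMRATAC on every library by itself, without pooling. The deposited score of each region, a whole number of at least 30, is of a kind not given in the sources used here. The lists hold no read counts, so depth is unknown and no fold change was computed.

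Regions on the assembled nuclear chromosomes were ranked within each list and merged across libraries where they overlapped or touched (minimum overlap 1 bp). The TSS was that of the Ensembl canonical transcript in GENCODE 44. Percentiles of TSS regions were compared with limma 3.58.1 (R 4.3.3), with a trend on the mean, over 8610 coding genes open in all 6 libraries. The fit pooled the 3 groups, gave two-sided tests and used Benjamini-Hochberg adjustment over all genes, with a threshold of 0.05. Single values per library were compared by exact permutation. The fit over 15852 merged regions was added after the data were seen. The genes and lists were chosen with earlier results of these data known. All 10 genes are named. A list gene is named when called, or else when it has the smallest p of its list. A distal region is named when it is the highest-ranking merged region of its window apart from the TSS region, or open in a single group. The ATF3 region 42.1 kb upstream, 2 FOSL1 regions and the separate calls near FOSB and JUND were added after their values were seen. Motifs were searched on both strands with Python 3.11.15 and pysam 0.24.0. Alternatives were the upper 50% of each list, 18887 regions per list, percentiles among regions open in all 6 libraries, normal scores, gene-record starts, a margin of 500 bp, no filter, other windows and overlaps, a replicate block and leaving out each library. Procedures were tested on simulated data.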

Additional observations from a re-analysis of the deposited data

How the results depend on the processing

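The number of AP-1 genes called at the TSS was 0 for TPA against control and rose to 2 with an equal number of regions and with percentiles among regions open in all 6 libraries. For TPA against ZnCl2 it was 1, and became 3 under those same alternatives and 0 with no filter on closed TSSs (12636 genes, JUND adjusted p = 0.639), with normal scores (JUND adjusted p = 0.0977) and with the replicate block. Leaving out each library in turn gave 0 to 1 for both. For ZnCl2 against control it was 0 throughout. Of all coding TSSs, 42 were called for TPA against control, and 394 with equal lists, 483 among common regions, 25 in the upper 50%, 0 with no filter and 7 with the block. For TPA against ZnCl2 82 were called, and 778, 1209, 63, 0 and 16 under the same alternatives. The calls for TPA against control were all lower (0 higher, 42 lower) and were 12 higher and 382 lower with equal lists. For TPA against ZnCl2 they were 37 higher and 45 lower, and 117 higher and 661 lower with equal lists. For ZnCl2 against control 2 were called, and 9 from gene-record starts, 3 with normal scores, 0 with equal lists, common regions, the upper 50%, no filter or the block, and 330 without ZnCl2 replicate 1.

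Of the 22 AP-1 merged regions, 0 were called for TPA against control and 3 among common regions. With equal lists 16 AP-1 regions could be fitted, of which 2 were called. Over all merged regions 63 of 15852 were called in that comparison, 387 among common regions and 348 of 11181 with equal lists. For TPA against ZnCl2 2 were called, and 5 of 16 with equal lists, 1 with normal scores, 7 among common regions and 0 with the block (ATF3 intronic region, limma, adjusted p = 0.0526). Over all merged regions 471 of 15852 were called in that comparison, and 1677 of 11181 with equal lists. The number over all was 697 with normal scores, 2826 among common regions and 117 with the block. Leaving out a library left 1 in its group, and the merged-region calls of those fits are not given. Without ZnCl2 replicate 1 the median difference over all merged regions was -14.5 points for ZnCl2 against control, in place of -4.65. For TPA against ZnCl2 it was 17.0 points, in place of 7.39.

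The TSS differences that turned their sign, none of them called, were FOSL1 for TPA against control (-3.71 with equal lists, -0.0048 in normal scores and -3.33 among common regions), FOS for ZnCl2 against control (1.20 and 0.446) and JUNB for TPA against ZnCl2 (-3.98 and -4.09). Without single libraries, the ranges for TPA against control were -4.58 to 14.3 for FOS, -6.30 to 7.68 for FOSB, -3.13 to 3.58 for FOSL1, -2.08 to 1.30 for JUN and -2.12 to 23.6 for JUNB. For ZnCl2 against control they were -17.5 to 0.377 for FOS, -19.4 to 2.64 for FOSL1, -3.13 to 22.6 for JUNB and -0.930 to 0.0326 for ATF3, and for TPA against ZnCl2 -2.42 to 19.6 for FOSL1, -4.55 to 0.466 for FOSL2 and -1.74 to 3.77 for JUNB.

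The difference in covered share of the windows was 0.717 percentage points for TPA against control and became -0.668 with 5 kb and -0.0396 with 50 kb on either side. For ZnCl2 against control it was 0.683 and became -0.364 with 50 kb. For TPA against ZnCl2 it was 0.0333 and became -0.670 with equal lists and -2.14 with 5 kb. Leaving out libraries gave -4.75 to 6.18, -4.78 to 6.15 and -3.64 to 3.71 in that order. Regions open in a single group numbered 0 for TPA against control and 2 in the upper 50%, with equal lists, with 50 kb and when 50% of the region had to be covered, and 1 to 4 without single libraries. For ZnCl2 against control they numbered 0, then 3 with equal lists and 0 to 6 without single libraries. For TPA against ZnCl2 they numbered 1, then 4 in the upper 50%, 7 with equal lists, 0 with 5 kb, 6 with 50 kb, 8 at 50% coverage and 3 to 9 without single libraries. With equal lists, 8.34% of all merged regions were open in a single group for TPA against control. It was 6.84% for ZnCl2 against control and 16.1% for TPA against ZnCl2. With all regions these shares were 2.74%, 1.9% and 10.7%. The share over all merged regions is not given for the other alternatives. The cause of the changes in covered share and in these counts was not tested.

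Deviations of same-numbered libraries correlated at 0.170 between control and TPA, -0.460 between control and ZnCl2 and -0.134 between TPA and ZnCl2 over the TSSs. Replicate 1 had the shorter list in the control and TPA groups and the longer list with ZnCl2. The median TSS percentile was higher in the longer list of each group. These correlations therefore cannot show whether same-numbered libraries were prepared together. With the replicate block the JUND call between TPA and ZnCl2 had an adjusted p of 0.210, and this was the only call at an AP-1 TSS. It leaves single values per library at their differences (-0.500 open TSSs and 0.717 points of covered share for TPA against control). Without read counts, the list length is the only measure of library yield, and differences between ranks of a few points cannot be separated from it.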
